A study of Mus musculus with 30 samples.

Results

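The 10 genes described here belong to the response of cells to low oxygen and to glycolysis: Vegfa, Hif1a, Slc2a1, Slc2a3, Hk2, Pfkl, Aldoa, Pgk1, Ldha and Pdk1. They were chosen by name with earlier results of these libraries in view, so their levels and calls are given as a description. All 10 stand among the 17562 genes of the deposited count table, and all 10 passed the filter on low counts that left 16068 genes for testing.

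The libraries are RNA-seq of haematopoietic stem cells, which were flow-sorted out of male mouse bone marrow. Young mice were 8 to 12 weeks old, and old mice were 22 months old in strain B6 and 21 months old in BoyJ, a strain that differs from B6 at the CD45 gene Ptprc. Some mice stayed single (YCNT, young, 7 libraries; OCNT, old, 4). Others were surgically joined, so that blood is shared, to a partner of like age (isochronic: YISO, 4; OISO, 6) or of the other age (heterochronic: YHET, 2; OHET, 4). OHETX (2 libraries) are old B6 stem cells of heterochronic pairs that had settled in the marrow of the young partner. YCNT held 3 B6 and 4 BoyJ libraries, YISO 2 and 2, OCNT 3 and 1, and OISO 5 and 1. YHET libraries were all BoyJ, and OHET and OHETX libraries were all B6. No genetic change or drug is named for any group. Partners, sorting markers and the number of mice behind a library are not given in the sources used here, so p-values measure the spread between libraries, which may be technical in part.

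HIF-1 is a transcription factor made of an oxygen-regulated subunit, encoded by Hif1a, and a constant partner, Arnt. Prolyl hydroxylases mark the oxygen-regulated subunit for destruction while oxygen is present, so its regulation is mostly at the protein level and its mRNA need not follow its activity. In low oxygen HIF-1 raises genes for glucose uptake, glycolysis and lactate production and the vessel growth factor Vegfa. Through Pdk1, which inhibits pyruvate dehydrogenase, it holds back the use of pyruvate in mitochondria. Haematopoietic stem cells live in marrow with little oxygen and are known for their reliance on glycolysis.

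Of the 29 libraries used, 19 had a title and a description that name the same sample, and 10 had labels that conflict (3 YCNT, 1 YISO, 2 OISO, 2 OHET and both OHETX). Libraries were assigned by the code in the title and are numbered by it. Across 16068 genes, log ratios of conditions under this assignment followed the fold changes in the authors' deposited tables with a Spearman rho of 0.744 to 0.823 over 11 tables, and under assignment by the description with a rho of -0.109 to 0.648. Totals ran from 7659468 counts (OHETX library 4) to 30932977, with a median of 22712720. The stem cell markers Kit, Mecom and Hlf were present in all 29 libraries, Kit at 622 to 985 CPM (counts scaled to the size of each library), Mecom at 317 to 554 CPM and Hlf at 629 to 1468 CPM. Cd48, which stem cells lack, stood at 0 to 7.31 CPM. Immediate early genes such as Fos and Jun, summed over 17 genes, reached 4292 to 4771 CPM in the 3 B6 libraries of OCNT and 4189 in OHETX library 4, and at most 1838 in the others. Neutrophil markers, summed over 8 genes, stood at 2605 CPM in OHETX library 4, at 4.32 in OHETX library 14 and at a median of 35.8 over all libraries. Megakaryocyte markers, summed over 8 genes, stood at 204 to 389 CPM in the young libraries and at 385 to 847 in the old.

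HIF binds DNA at the letters ACGTG or GCGTG. The 250 bases upstream of a RefSeq start (build GRCm38.p6) are shown for 3 members that the results below turn on: the ligand Vegfa, at chr17:46032378-46032627 on the minus strand, the enzyme Ldha, at chr7:46845554-46845803 on the plus strand, and the enzyme Pgk1, at chrX:106186850-106187099 on the plus strand. The Vegfa and Pgk1 windows end just outside the gene as GENCODE M21 bounds it, and the Ldha window lies inside those bounds, before a start used by RefSeq. Capitals mark ACGTG or GCGTG on either strand.
Vegfa upstream: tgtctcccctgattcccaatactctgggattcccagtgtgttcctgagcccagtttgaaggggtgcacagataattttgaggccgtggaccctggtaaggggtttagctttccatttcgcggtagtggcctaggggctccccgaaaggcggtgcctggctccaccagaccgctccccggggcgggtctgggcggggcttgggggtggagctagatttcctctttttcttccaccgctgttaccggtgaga
Ldha upstream: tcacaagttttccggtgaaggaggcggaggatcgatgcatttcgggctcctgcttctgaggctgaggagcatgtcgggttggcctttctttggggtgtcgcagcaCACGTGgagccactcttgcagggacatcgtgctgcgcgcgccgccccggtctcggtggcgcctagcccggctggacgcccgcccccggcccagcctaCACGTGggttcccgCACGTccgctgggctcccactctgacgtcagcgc
Pgk1 upstream: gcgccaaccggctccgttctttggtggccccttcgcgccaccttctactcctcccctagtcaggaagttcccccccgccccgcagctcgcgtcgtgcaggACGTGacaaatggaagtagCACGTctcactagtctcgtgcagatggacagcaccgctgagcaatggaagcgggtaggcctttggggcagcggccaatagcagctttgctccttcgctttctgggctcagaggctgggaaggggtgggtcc

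A CACGTG holds the motif once on each strand and counts as 2 matches. The Ldha window held 5 matches, the Pgk1 window 2 and the Vegfa window 0, which says only that these letters are not in that window. A further Vegfa start in RefSeq, inside the gene, had 2 matches, and a further Ldha start, also inside its gene, had 1. RefSeq entries were found for 9 of the 10 genes, and 38.6% of all 32851 windows of this length held at least 1 match. A match is a description of the letters and not a binding site.

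Levels per length, in mean CPM per kilobase of exon (GENCODE M21), placed Ldha first at 168 CPM per kb. Ldha encodes the enzyme that turns pyruvate into lactate. Aldoa (aldolase, 61.2 CPM per kb) and Pgk1 (phosphoglycerate kinase, 53.8 CPM per kb) came next. The glucose carriers Slc2a3 and Slc2a1 stood at 19.5 and 16.7 CPM per kb, with Hif1a between them at 17.0. Pdk1 (pyruvate dehydrogenase kinase, 12.7 CPM per kb) and Hk2 (hexokinase, 10.6 CPM per kb) followed. Pfkl (phosphofructokinase, liver type) had 3.98 CPM per kb, and Vegfa was lowest at 1.99 CPM per kb. Ldha, Aldoa and Pgk1 have pseudogene copies in the annotation that are not rows of the table, Slc2a3 overlaps a pseudogene that is not a row either, and a second GENCODE gene named Aldoa held 0.312% of the Aldoa count. For Hif1a, an overlapping gene on the same strand (Gm49321) held 4.03% of its count. Values of these genes may therefore include or lose reads of their copies.

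The genes on GRCm38 lie at chr17:46016993-46032369 (Vegfa), chr12:73901375-73947530 (Hif1a), chr4:119108711-119137983 (Slc2a1), chr6:122727809-122801640 (Slc2a3), chr6:82725025-82774454 (Hk2), chr10:77986947-78010083 (Pfkl), chr7:126795234-126800751 (Aldoa), chrX:106187100-106203699 (Pgk1), chr7:46841475-46855627 (Ldha) and chr2:71873224-71903858 (Pdk1). Spread between libraries differed widely among them. The biological coefficient of variation was 36.9% for Vegfa, 32.8% for Pfkl and 28.9% for Hk2, and 14.2% to 20.4% for the other 7. Vegfa spanned a 9.17-fold range, from 2.39 CPM in OHET library 32 (63 counts) to 21.9 CPM in OHETX library 14. Its fewest counts were 58, in OHET library 12.

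Read over all comparisons, the 10 genes gave few differences beyond replicate spread. The edgeR quasi-likelihood test called none of the 10 (0 of 10) at a Benjamini-Hochberg adjusted p under 0.05 in any of 10 comparisons. At an unadjusted p under 0.05 there were 3 members in OCNT minus YCNT, 2 in OISO minus YISO, 1 in YISO minus YCNT, 1 in OHET minus OISO, 2 in OHETX minus OHET, 3 in OHETX minus OISO and 1 in the difference of the 2 age effects. Of all genes tested 11.7%, 13.1%, 10.2%, 8.51%, 13.6%, 13.0% and 5.18% had such a p in these 7 comparisons, in that order, so that 1 or 2 of 10 is close to the background. DESeq2 called 1 member in OCNT minus YCNT and 1 in OHETX minus OHET, and limma-voom called 3 in OCNT minus YCNT. Neither called a member in another comparison.

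The background of such calls was low. Of 16068 genes edgeR called 2.11% in OCNT minus YCNT (339 genes), 1.45% in OISO minus YISO (233), 0.218% in OHETX minus OHET (35), 0.187% in OHETX minus OISO (30) and 0.0124% between strains (2). It called 0% in YISO minus YCNT, OISO minus OCNT, OHET minus OISO, YHET minus YISO and the difference of age effects, where 1643, 677, 1367, 962 and 833 genes had an unadjusted p under 0.05. DESeq2 called 84, 42, 30, 59 and 24 genes in these 5, and limma-voom 0, 124, 0, 0 and 0. DESeq2 called 3.68% of genes in OCNT minus YCNT and 2.98% in OHETX minus OHET. In OCNT minus YCNT limma-voom called 7.18%, and edgeR on the 19 libraries with matching labels called 1.41%.

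Vegfa, the ligand that drives vessel growth and that stem cells themselves make, was highest in the old cells found in young marrow. Its 2 OHETX libraries had 10.9 (library 4) and 21.9 CPM (library 14). In OHET, old cells from the old partner, libraries 9, 12, 26 and 32 had 7.32, 4.57, 5.54 and 2.39 CPM. Both OHETX values lay above all 4 OHET values, and library 14 lay above every other library of the study. Of all genes tested, 13.2% did not overlap between OHETX and OHET.

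Vegfa gave a log2 fold change of 1.73 ± 0.44 (SE; 95% interval 0.82 to 2.65) in OHETX minus OHET, with an edgeR adjusted p of 0.0797. DESeq2 gave 1.75 with an adjusted p of 0.00947, and limma-voom 1.80 with an adjusted p of 0.705. The authors' deposited table of OHET against OHETX gives -1.74 (first condition over second) with an adjusted p of 0.00171, in a table where 3.05% of 16988 genes pass. That is the only 1 of 110 member values in the authors' 11 deposited tables under 0.05, where 1.27% of all values pass. Vegfa was thus called by DESeq2 and in the authors' table, and not by edgeR or limma-voom. The submitters' processing notes name DESeq2 too, so the DESeq2 call and the authors' call are not independent.

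Against OISO, where the lowest Vegfa value was 3.06, the median 8.93 and the highest 10.0 CPM, both OHETX libraries were again above the range. Of all genes tested, 15% did not overlap between OHETX and OISO. OHETX minus OISO gave 1.07 ± 0.41 on the log2 scale with an edgeR adjusted p of 0.251. Without library 14 the Vegfa differences were 1.14 against OHET and 0.47 against OISO, and without library 4 they were 2.15 and 1.49. Leaving out library 14 therefore moves both values by more than 1.5 times.

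No OHETX library has labels that match, so none of these Vegfa values can be given without libraries in doubt. With columns assigned by the description, OHETX minus OHET for Vegfa was -0.11 and OHETX minus OISO was -0.66, each with an edgeR adjusted p of 1. Library 4, the lower of the 2 in Vegfa, carried the neutrophil and immediate early gene shares given above and the fewest counts. Library 14, the higher in Vegfa, had 4.32 CPM of neutrophil markers and 1030 of immediate early genes. The part of these shares in the Vegfa levels was not tested.

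**Figure D1:**
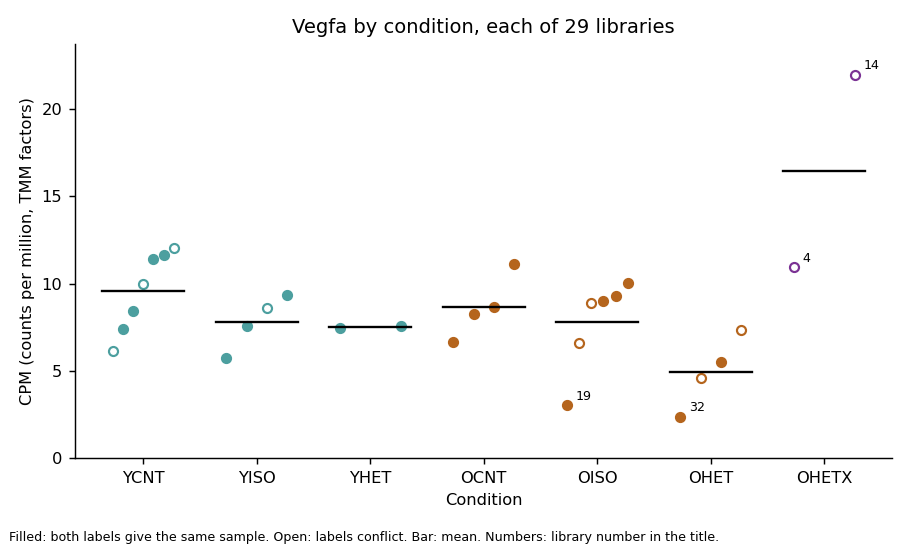
Vegfa in CPM (vertical axis) in each of the 29 libraries, by condition (horizontal axis), with bars at the mean; filled points have matching labels and open points conflicting ones. OHETX libraries 4 and 14 stand at 10.9 and 21.9 CPM, above OHET at 2.39 to 7.32 CPM, and both are open points.

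In the other conditions Vegfa showed no order by age. Its mean was 9.57 ± 2.29 CPM (SD, n = 7) in YCNT and 8.67 ± 1.85 (n = 4) in OCNT. OCNT minus YCNT was -0.18 ± 0.35 on the log2 scale, with a 95% interval of -0.92 to 0.55. In joined mice the mean was 7.81 ± 1.58 (n = 4) in YISO and 7.81 ± 2.59 (n = 6) in OISO. OISO minus YISO was -0.05 ± 0.37, with an interval of -0.82 to 0.71. An age difference of Vegfa inside these intervals was not detectable with these libraries.

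YHET libraries 2 and 17 had 7.46 and 7.55 CPM of Vegfa, within the YISO range of 5.71 to 9.36. OHET had the lowest mean, 4.955 ± 2.05 CPM (n = 4), and OHET minus OISO was -0.66 ± 0.35 with an edgeR adjusted p of 0.626. In the 19 libraries with matching labels this difference was -1.03 with an adjusted p of 0.461. OHET library 32 was lowest of all 29 at 2.39 CPM and OISO library 19 next at 3.06, and the ranges of the 2 conditions overlapped.

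By the order of means, Vegfa ran OHETX, YCNT, OCNT, YISO and OISO level, YHET, then OHET. Neighbours from YCNT to YHET differed by less than the SD within YCNT. Both ends overlapped the middle: OHETX library 4, at 10.9 CPM, lay inside the YCNT range of 6.14 to 12.0 and the OCNT range of 6.66 to 11.1, and OHET reached into the ranges of YCNT, YISO, OCNT and OISO. The size of the OHETX mean, 16.4 CPM, rests largely on library 14.

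The genes whose log2 CPM followed Vegfa most closely over the 29 libraries were Arl5b (Pearson r 0.78; 0.84 without library 14), Crybg3 (0.68; 0.60), Olfr173 (0.68; 0.60), Megf11 (0.66; 0.58) and Map2k1 (0.66; 0.61), of 11669 genes considered. Arl5b had a mean of 66.3 CPM in OHETX and 39.3 in OHET. These r values describe libraries that share conditions, cells and depth. The other 9 members were left out of that search and are given on their own. Hif1a had the highest r with Vegfa of the 9, at 0.25, and Ldha the lowest, at -0.33. With condition means removed, these were 0.46 for Hif1a and -0.02 for Ldha, and Aldoa was lowest at -0.34.

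Hif1a, the oxygen-regulated subunit, was among the steadiest of the genes. Its 4 OCNT libraries had values between 95.99 and 100.03 CPM, inside the YCNT range of 92.7 to 112.7. OCNT minus YCNT was -0.09 ± 0.12 (95% interval -0.34 to 0.17), and OISO minus YISO was -0.10 ± 0.13 (interval -0.36 to 0.17). Neither comparison passed, with edgeR adjusted p of 0.869 and 0.842.

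The lowest Hif1a means were those of OHET and OHETX. OHET libraries 9, 12, 26 and 32 had 96.6, 84.2, 83.0 and 74.3 CPM, and OHETX libraries 4 and 14 had 75.1 and 82.4. OISO spanned 82.2 to 122.4 CPM and overlapped both. OHET minus OISO was -0.24 ± 0.12 with an edgeR adjusted p of 0.606, and OHETX minus OISO was -0.35 ± 0.16 with an adjusted p of 0.355. The highest Hif1a mean was in YHET, with 128.4 and 134.0 CPM, and YHET minus YISO was 0.28 ± 0.17 with an adjusted p of 0.864.

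Glucose enters through the carriers Slc2a1 (GLUT1) and Slc2a3 (GLUT3). Slc2a3 had a mean of 157.2 ± 12.2 CPM (n = 4) in OCNT and 131.6 ± 16.1 (n = 7) in YCNT. The OCNT libraries 28, 29, 30 and 18 had 162, 157, 170 and 141 CPM against 106.5 to 149.8 in YCNT, and 1 of the 4 lay inside that range. OCNT minus YCNT was 0.33 ± 0.17 with an edgeR adjusted p of 0.471, and limma-voom gave 0.40 with an adjusted p of 0.0335. Without the 3 B6 libraries of OCNT it was -0.02, from 1 old library.

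In joined mice Slc2a3 had a mean of 152.5 ± 20.7 CPM (n = 6) in OISO and 122.7 ± 24.9 (n = 4) in YISO, a log2 difference of 0.38 ± 0.18 with an adjusted p of 0.343. Slc2a1 stood at 51.5 ± 9.29 CPM in YCNT, 55.3 ± 9.39 in OCNT, 51.8 ± 5.61 in YISO and 64.2 ± 7.03 in OISO. Its log2 differences were 0.10 ± 0.18 in single mice and 0.30 ± 0.19 in joined mice, with edgeR adjusted p of 0.902 and 0.531. Its highest single value was 91.2 CPM in OHET library 12. In OHET both carriers were spread widely, Slc2a3 from 85.0 to 188.9 CPM and Slc2a1 from 47.9 to 91.2 CPM.

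Hk2, the hexokinase that traps glucose in the cell, was the member whose OCNT and YCNT libraries did not overlap. OCNT libraries 28, 29, 30 and 18 had 80.5, 78.3, 74.8 and 67.6 CPM, and YCNT ran from 27.3 through a median of 47.6 to 63.8 CPM. Of all genes tested, 3.98% did not overlap in this comparison. The log2 difference of Hk2 was 0.64 ± 0.26 with an edgeR adjusted p of 0.279. Hk2 in OISO spanned 40.2 to 105.4 CPM, and YISO reached 86.3 in library 7, so the joined groups overlapped at 0.32 ± 0.29. That value was 0.04 without YISO library 23 and 0.73 without YISO library 7. In OHETX library 4 had 121.4 CPM, the highest of all, and library 14 had 50.6.

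Pfkl, 1 of 3 phosphofructokinase genes, gave no difference by condition beyond its spread. YCNT ran from 10.4 to 46.2 CPM, and OHET library 26 had 51.3 CPM beside 18.3, 18.9 and 23.0 in the other 3. Its 95% interval for OCNT minus YCNT was -0.80 to 0.46, the widest of the members after Vegfa.

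Aldoa, which splits fructose bisphosphate, had 169, 196, 179 and 249 CPM in OCNT libraries 28, 29, 30 and 18. In YCNT 6 libraries had 122.7 to 155.5 CPM and library 10, whose labels conflict, had 241.4. The ranges overlapped only through that library. OCNT minus YCNT was 0.45 ± 0.14 with an edgeR adjusted p of 0.119.

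On the 19 libraries with matching labels the Aldoa difference was 0.63 with an edgeR adjusted p of 0.0135. It also passed without YCNT library 10 alone, at 0.55 with an adjusted p of 0.0110. Among fits that left out 1 library the value was lowest, 0.35, without OCNT library 18. The adjusted p reached 0.521 over these fits. In joined mice the means were closer, 179.4 ± 24.1 CPM (n = 6) in OISO and 158.8 ± 22.1 (n = 4) in YISO, a difference of 0.25 ± 0.15.

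Pgk1, which yields the first ATP of glycolysis, had lower values in old than in young joined mice. OISO ran from 75.5 through a median of 99.0 to 120.5 CPM, and YISO libraries 23, 33, 7 and 20 had 128, 164, 138 and 120.7 CPM. The groups did not overlap, by a margin of less than 1 CPM, as was true of 4.05% of all genes. The log2 difference was -0.43 ± 0.14 with an edgeR adjusted p of 0.120, and -0.54 with 0.155 on the 19 libraries with matching labels.

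Single mice showed no such difference in Pgk1. OCNT minus YCNT was -0.00 ± 0.14 (95% interval -0.29 to 0.28), with 94.1 to 150.6 CPM in OCNT and 106.7 to 150.9 in YCNT. The difference between the 2 age effects was itself tested and gave -0.43 ± 0.19, with an edgeR adjusted p of 0.936. OHET had 156.5, 130, 124 and 102.4 CPM in libraries 9, 12, 26 and 32, and OHET minus OISO was 0.38 ± 0.14 with an adjusted p of 0.483.

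Ldha values in old libraries lay mostly above those in young libraries, without passing the edgeR threshold. YCNT ran from 370.8 through a median of 431.6 to 503.6 CPM, and OCNT libraries 28, 29, 30 and 18 had 502.5, 547, 540 and 700. The 2 ranges met at 502.5 and 503.6 CPM. YISO had 447.0 to 564.3 CPM and OISO 564.2 to 667.3, which also met at their ends. OHET libraries 9 and 12, whose labels conflict, had 766 and 905 CPM, and libraries 26 and 32 had 544 and 631.

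In OCNT minus YCNT the log2 fold change of Ldha was 0.43 ± 0.12 with an edgeR adjusted p of 0.0549. DESeq2 gave 0.41 with 0.0453 and limma-voom 0.37 with 0.0106. On the 19 libraries with matching labels it was 0.48 with an adjusted p of 0.0708, and without the 3 B6 libraries of OCNT, which carry the high immediate early gene shares, it was 0.67 with 0.164 from 1 old library. Assigned by the description it was 0.18 with 0.806. In edgeR it also passed in 5 fits that left out 1 library, with an adjusted p of 0.0335 to 0.0431. Among all such fits the value was lowest, 0.31, without OCNT library 18, and the adjusted p reached 0.446. The call for Ldha thus turned on the tool and on single libraries, while the value stayed above 0 in each of these fits.

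OISO minus YISO gave 0.24 ± 0.12 for Ldha with an adjusted p of 0.411. Young joined mice themselves had more Ldha than young single mice, with means of 529 ± 55.1 CPM (n = 4) and 434.9 ± 50.1 (n = 7). That difference, YISO minus YCNT, was 0.30 ± 0.12 with an edgeR adjusted p of 0.403. Ldha and Aldoa had the highest r of the 45 pairs of members over the 29 libraries, 0.57. Over all pairs the median r was 0.01 and 24 were positive, so the 10 genes did not move as a unit.

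Pdk1, the kinase that inhibits pyruvate dehydrogenase in mitochondria, was lowest in OHETX. Libraries 4 and 14 had 71.0 and 55.8 CPM, OHET libraries had 94.6 to 103.9, and OISO had 87.6 to 107.9. Both OHETX values lay below all OHET and OISO values, and YCNT library 1, at 74.2 CPM, was the next lowest.

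Like Vegfa, Pdk1 did not overlap between OHETX and either OHET or OISO, and these were the only 2 members of which that held. Such separation held for 13.2% of all genes against OHET and 15% against OISO. The log2 differences of Pdk1 were -0.65 ± 0.20 (edgeR adjusted p 0.146) against OHET and -0.55 ± 0.19 (0.205) against OISO. With columns assigned by the description they were -0.10 and 0.04. Neither age comparison separated Pdk1, at 0.09 ± 0.14 in single mice and -0.18 ± 0.15 in joined mice.

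**Figure D2:**
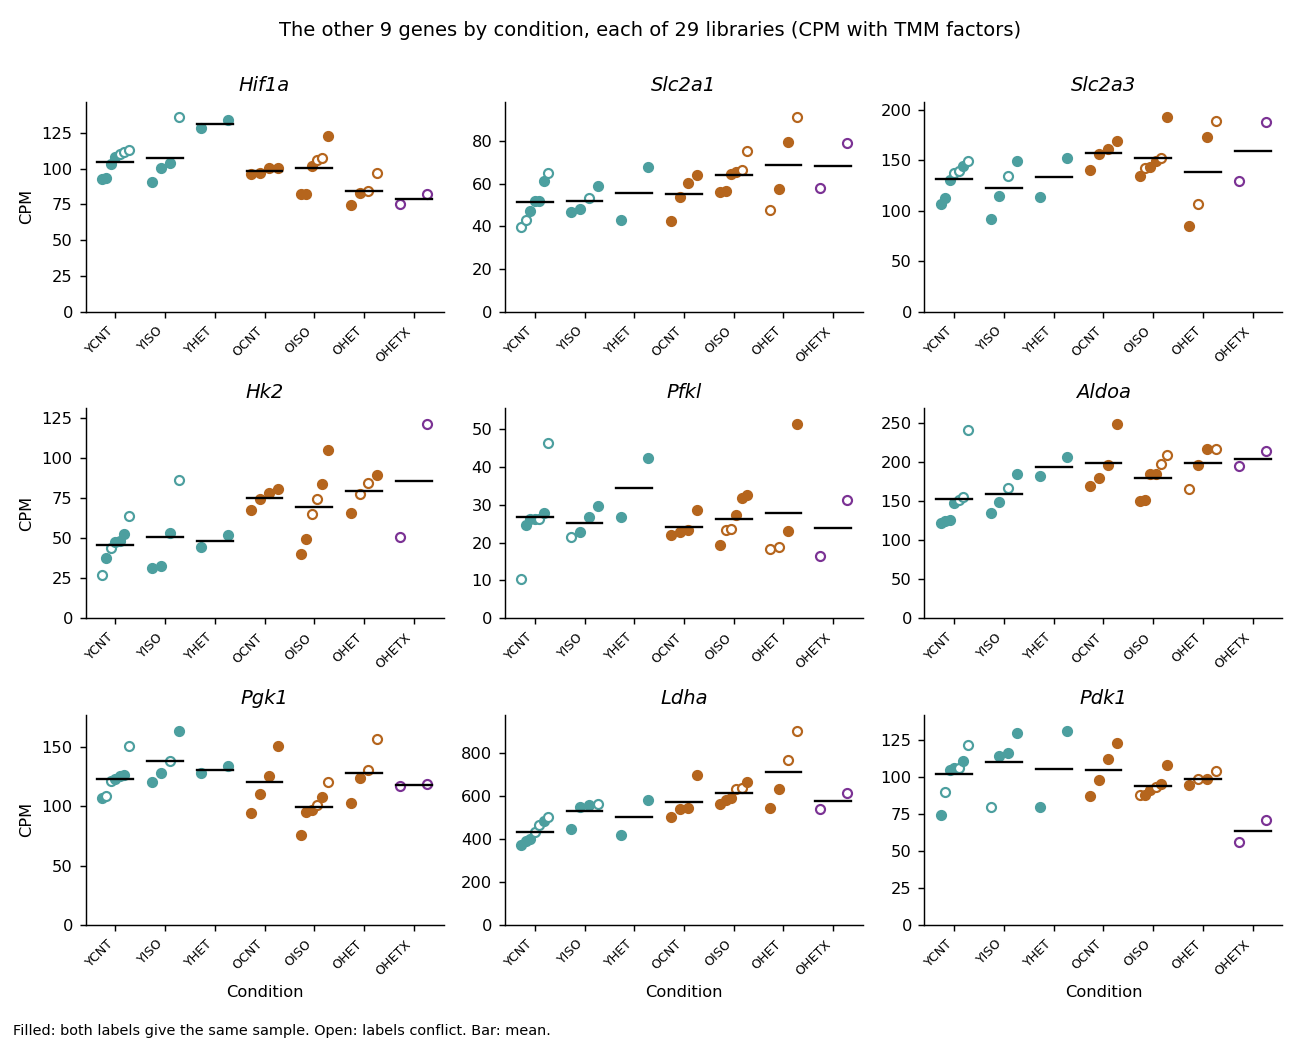
The other 9 genes in CPM (vertical axes, each starting at 0) in each of the 29 libraries, by condition; bars are means, filled points have matching labels and open points conflicting ones. Ldha in OCNT starts at 502.5 CPM, where YCNT ends at 503.6, and Pdk1 in OHETX stands at 55.8 and 71.0 CPM.

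**Figure D3:**
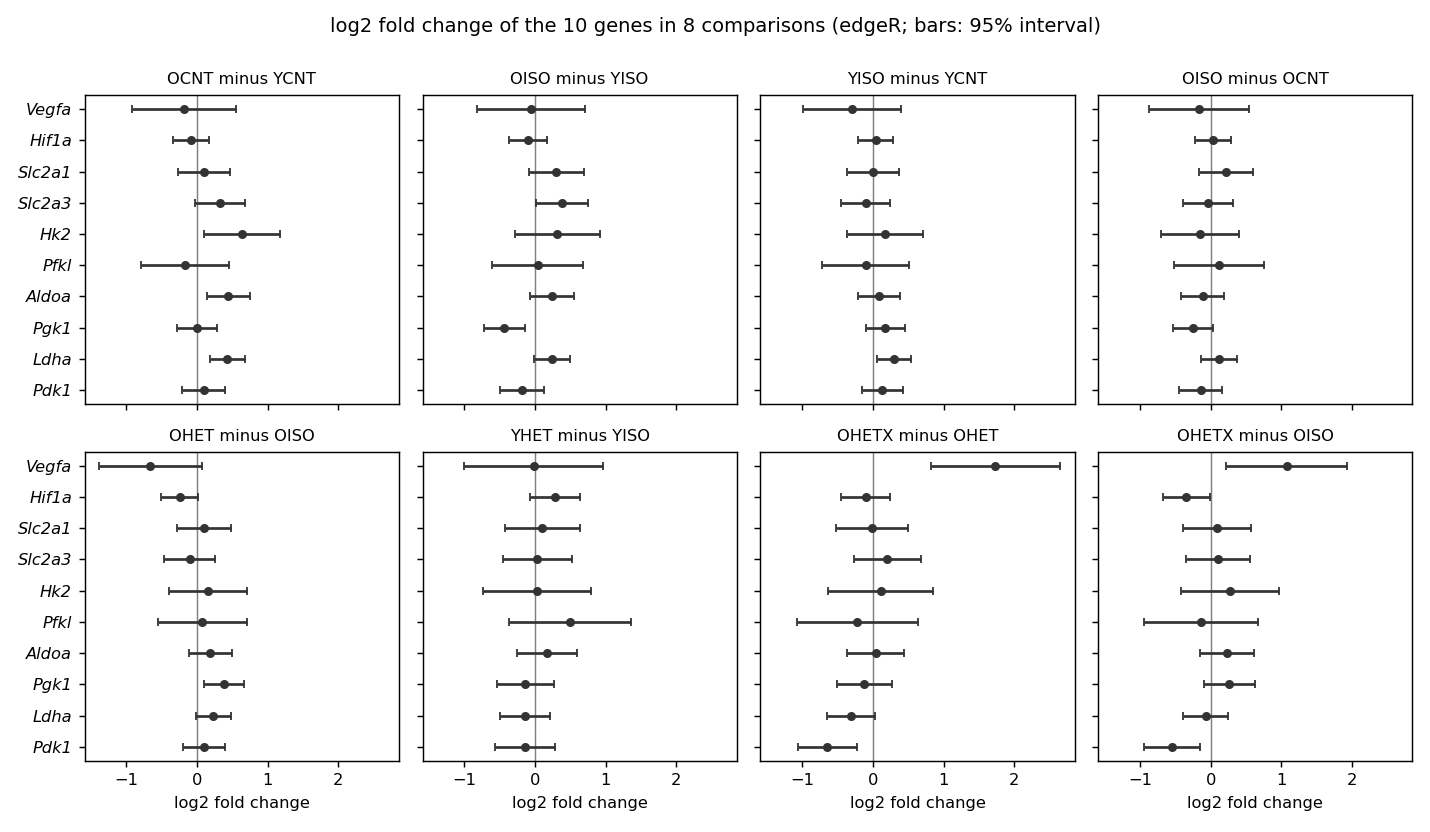
Log2 fold changes of the 10 genes (points) with 95% intervals (bars) from edgeR in 8 comparisons, on 1 shared horizontal axis. Vegfa in OHETX minus OHET, at 1.73 with an interval of 0.82 to 2.65, is the member value farthest from 0.

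As a list, the members had a median log2 difference of 0.10 in OCNT minus YCNT, where all genes had -0.02, and 0.14 in OISO minus YISO, where all genes had 0.00. In OHETX minus OHET the members' median was -0.06 and that of all genes -0.05. These medians lay close to those of all genes in each case.

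Wider lists of the same pathways were then read for the 2 age comparisons. They were set with earlier results of these data known. Of all 16068 genes, 256 rose and 83 fell in OCNT minus YCNT, and 179 rose and 54 fell in OISO minus YISO. Among 16 tested regulators of HIF, 2 rose in OCNT minus YCNT and the same 2, Epas1 and Cited2, rose in OISO minus YISO. None fell. The list's median was 0.01 in single and 0.02 in joined mice, near that of all genes.

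Epas1 encodes HIF-2alpha, the second oxygen-regulated subunit, which pairs with Arnt as Hif1a does. All 13 young libraries had 3.26 to 8.34 CPM of Epas1 (median 4.58), and all 16 old libraries had 8.83 to 21.9 CPM (median 17.1). No old library overlapped a young one, which was true of 0.174% of the 16068 genes (28). Epas1 was named because it was called in the age comparisons of these libraries, so the separation is a description. Every old condition lay above the young ones. OCNT libraries 28, 29, 30 and 18 had 17.9, 21.9, 20.2 and 16.4 CPM, OHET had 12.2 to 21.0 and OHETX libraries 4 and 14 had 12.0 and 8.83.

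Epas1 rose by 1.90 ± 0.29 on the log2 scale in OCNT minus YCNT (edgeR adjusted p 0.000189) and by 1.70 ± 0.32 in OISO minus YISO (0.0035). Both passed in each fit that left out 1 library, and on the 19 libraries with matching labels, at 1.73 (0.0193) and 1.97 (0.0231). Without the 3 B6 libraries of OCNT the first was 1.57 with an adjusted p of 0.197, from 1 old library, and with columns assigned by the description it did not pass. OHET minus OISO was 0.31 ± 0.30 with an adjusted p of 0.821. Hif1a, beside it, gave -0.09 and -0.10 in the 2 age comparisons. Megakaryocyte markers also separated OCNT (560 to 742 CPM) from YCNT (204 to 307) and OISO (459 to 847) from YISO (251 to 348), and their part in the age differences of Epas1 and the genes below was not tested.

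Cited2, which competes with HIF for the coactivators CBP and p300, rose by 0.72 ± 0.17 in OCNT minus YCNT (edgeR adjusted p 0.0189) and by 0.70 ± 0.18 in OISO minus YISO (0.0472). OISO had 199.0 to 249.1 CPM and YISO 114.9 to 146.7, without overlap, as held for 4.05% of all genes. Cited2, too, was named because it was called in these comparisons. The second call failed in 17 of 29 fits that left out 1 library, with values of 0.60 to 0.73, on the 19 libraries with matching labels (0.72, adjusted p 0.0620), with limma-voom, without the filter and without the 3 B6 libraries of OCNT. The first failed in 3, without YCNT library 24 and OCNT libraries 30 and 18, with an adjusted p of up to 0.135. Without the 3 B6 libraries of OCNT the first value was 0.83, from 1 old library.

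Of 8 other VEGF ligands and receptors tested, 2 rose in OCNT minus YCNT, and none rose or fell in OISO minus YISO. Both that rose are receptors. Of all genes, edgeR called 2.11% and 1.45% in these 2 comparisons, in that order. Kdr, the main signalling receptor for Vegfa, rose by 2.05 ± 0.49 (edgeR adjusted p 0.0195), and Nrp2, a co-receptor, rose by 1.65 ± 0.43 (0.0363). The list's median was -0.52 in single and -0.38 in joined mice. The Kdr call failed without YCNT libraries 1, 5 or 24 or OCNT libraries 29 or 30, with an adjusted p of up to 0.121.

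Kdr had 26.2, 34.0 and 49.8 CPM in the 3 B6 libraries of OCNT and 10.1 CPM in the BoyJ library 18, against 3.26 to 14.5 in YCNT. Without the 3 B6 libraries its difference was 0.32, from 1 old library. These are the libraries with 4292 to 4771 CPM of immediate early genes, and library 18 had 605. In OCNT minus YCNT 7 of 17 immediate early genes rose, against 256 of all 16068 genes. The part of that state in the Kdr value was not tested.

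In OISO Kdr had 9.84 to 20.6 CPM against 1.51 to 8.75 in YISO, without overlap, at 1.54 ± 0.50 with an adjusted p of 0.127. Such separation held for 4.05% of all genes, and Kdr was named because it was called in OCNT minus YCNT. Nrp2 had 7.36 to 11.7 CPM in OCNT and 0.546 to 6.99 in YCNT, and its value in joined mice was -0.83 ± 0.45 with an adjusted p of 0.463. The difference between the 2 age effects of Nrp2 was -2.47 ± 0.61 with an adjusted p of 0.878. Its call in single mice failed in 9 of 29 fits that left out 1 library, and on the 19 libraries with matching labels it was 1.39 with 0.164. Kdr is also a marker of endothelial cells. Of 8 endothelial markers, Kdr among them, Cdh5 was at 0 in 17 libraries and at most 0.929 CPM in the rest. Plvap and Stab2 reached at most 3.79 and 0.977 CPM. Tek (61.7 to 122 CPM), Tie1 (31.7 to 81.7), Emcn (19.3 to 69.2) and Egfl7 (11.8 to 33.2) were present in all 29 libraries. The 8 markers summed to 188 to 258 CPM in YCNT and 235 to 272 in OCNT. Their part in the Kdr value was not tested. The ligands Vegfc and Vegfb were at 26.2 ± 10.1 and 16.5 ± 5.82 CPM in YCNT (n = 7) and 23.1 ± 11.6 and 10.9 ± 6.38 in OCNT (n = 4).

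Among 20 other glycolysis enzymes 2 rose in OCNT minus YCNT, none fell, and none passed in OISO minus YISO. Their medians were 0.01 and -0.01. Of all genes, edgeR called 2.11% and 1.45% in these comparisons, in that order. Pfkfb3 makes the sugar bisphosphate that activates phosphofructokinase, and Pfkp is the platelet-type phosphofructokinase. Pfkfb3 rose by 0.97 ± 0.21 (edgeR adjusted p 0.00926), with 137, 134, 124 and 80.9 CPM in OCNT libraries 28, 29, 30 and 18 against 44.9 to 80.3 in YCNT. It passed in all 29 fits that left out 1 library. Without the 3 B6 libraries of OCNT it was 0.31, from 1 old library, and in joined mice it was 0.70 ± 0.22 with an adjusted p of 0.114.

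Pfkp rose by 0.81 ± 0.22 (adjusted p 0.0459), with 41.2 to 60.4 CPM in OCNT and 22.1 to 42.9 in YCNT. That call failed in 17 of 29 fits that left out 1 library. The Pfkp difference was 0.63 with an adjusted p of 0.30 on the 19 libraries with matching labels. Without the 3 B6 libraries of OCNT it was 0.51, from 1 old library. Pfkp gave 0.08 ± 0.23 in joined mice. Gapdh and Gpi1, the most abundant of the list, gave -0.01 ± 0.10 and -0.01 ± 0.11 in OISO minus YISO.

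Of 30 other HIF target genes tested, 2 rose in each age comparison and none fell. Across all genes edgeR called 2.11% in single and 1.45% in joined mice. Vldlr, a lipoprotein receptor, rose in both, by 1.56 ± 0.35 (edgeR adjusted p 0.0142) in single and 1.82 ± 0.42 (0.0216) in joined mice. Pfkfb3 was the other in single mice, and Lox, a collagen cross-linking enzyme, the other in joined mice, at 2.86 ± 0.74 (0.0443).

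Vldlr had 180 to 423 CPM in OISO against 44.9 to 116.5 in YISO, and 120.5 to 261 in OCNT against 35.5 to 112.7 in YCNT, without overlap in either. Of all genes 4.05% and 3.98% did not overlap in these comparisons, in that order. Vldlr was named because it was called in them. OHET had 206 to 448 CPM and OHETX 333 and 354. The first Vldlr call failed without OCNT library 18 (adjusted p 0.177) and on the 19 libraries with matching labels (1.37, 0.164). Without the 3 B6 libraries of OCNT its value was 2.22, from 1 old library. The second call failed in fits without YISO libraries 23, 33 or 20 (up to 0.128). Lox failed in 14 of 29 such fits and on the 19 libraries with matching labels (2.97, adjusted p 0.145). It had 0.108 to 1.80 CPM in YISO, 2.12 to 18.8 in OISO and 0.785 to 12.2 in YCNT. In single mice its difference was 0.36 ± 0.63 with an adjusted p of 0.897, and YISO minus YCNT was -2.31 ± 0.71 with 0.310. With columns assigned by the description, the calls of Cited2, Nrp2, Pfkfb3, Pfkp and Vldlr in OCNT minus YCNT did not pass.

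No gene passed in any of the 10 comparisons among 9 tested glucose and lactate carriers and 12 genes of pyruvate entry and use in mitochondria. The same held for 7 enzymes of the pentose phosphate pathway. At an unadjusted p under 0.05 these lists held 0, 0 and 0 genes in OCNT minus YCNT and 3, 1 and 0 in OISO minus YISO, where 11.7% and 13.1% of all genes had such a p. Among cell cycle genes, 6 of 20 fell in OCNT minus YCNT and 3 of 20 in OISO minus YISO. Among all 16068 genes 83 and 54 fell, in that order. The cell cycle medians were -0.74 and -0.65, and the part of this in the values above was not tested. In sorted cells a change in which cells pass the sort and a change of RNA per cell cannot be told apart.

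**Figure D4:**
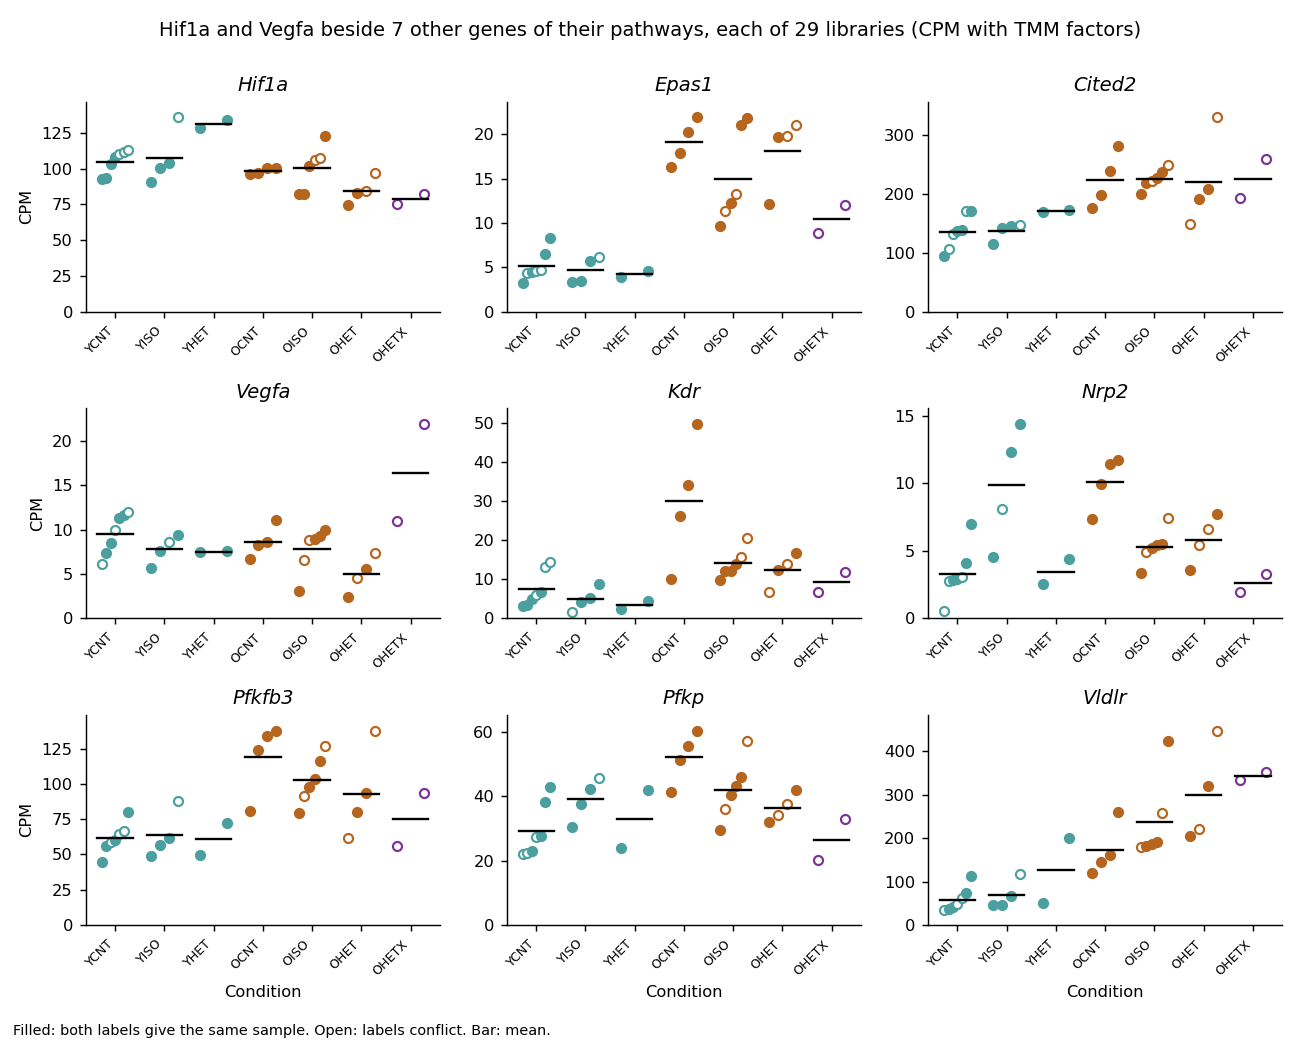
Hif1a and Vegfa beside 7 genes of the wider lists, in CPM (vertical axes, each starting at 0) in each of the 29 libraries, by condition; bars are means, filled points have matching labels and open points conflicting ones. Epas1 separates 13 young libraries (3.26 to 8.34 CPM) from 16 old ones (8.83 to 21.9 CPM), while Hif1a ranges overlap.

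Between strains no member passed, and BoyJ minus B6 gave member values of -0.27 to 0.22. The difference of the 2 age effects gave member values of -0.43 to 0.21, with no edgeR adjusted p under 0.936.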

How the data were processed

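RNA of sorted stem cells was prepared with kits for small inputs, per the labels' protocols. FastQC, MultiQC, Salmon, DESeq2 and build GRCm38 are named without versions, per the submitters' processing notes. The table of the whole series, as deposited by the authors, holds each expected count (estimated count) rounded to whole numbers, with 17562 genes and 30 columns. The authors also deposited 11 comparison tables with a log2 fold change and an adjusted p-value for each gene.

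Columns were assigned by the code in the sample title. That left out 1 column, whose code is in no title, and gave 29 libraries in 7 conditions; 1 YHET sample has no column.

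The main test was edgeR 4.0.16 in R 4.3.3: its quasi-likelihood method with robust fitting, TMM scaling and a strain term, over all conditions at once, leaving 21 residual degrees of freedom. filterByExpr kept 16068 genes, over which p was adjusted (Benjamini-Hochberg, threshold 0.05). The SE is the size of a log2 difference over the square root of its F. Gene CPM use TMM factors and marker sums use raw totals. Correlations used log2 CPM with a prior count of 2. None of 56 within-group pairs of libraries looked like a repeat (smallest chi-square per degree of freedom 21.9). Precision is limited by totals of 7659468 to 30932977 counts and by 2 to 7 libraries a condition.

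The members and lists were chosen with earlier results of these data known. Named were all 10 members, up to 4 called genes per list and comparison with the smallest adjusted p (otherwise up to 2 of the highest level), and the 5 genes most like Vegfa in r (mean log2 CPM no lower than 1).

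Alternatives were DESeq2 1.42.0, limma-voom (limma 3.58.1) with quality weights, RLE factors, no filter, no strain term, the 19 libraries with matching labels, assignment by description, and each library left out. One more, without the 3 B6 libraries of OCNT, was chosen after seeing the data. It leaves 1 library in OCNT, of strain BoyJ. Scripts were tested on simulated data.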

Additional observations from a re-analysis of the deposited data

Results flagged for a closer look

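Within the 50 groups of 4 to 7 libraries checked over the 10 genes, 4 had 1 library that stood off from the rest. That library stood off by more than 95% of such groups allow, where chance gives about 1 in 20. Slc2a3 in OISO library 19 (BoyJ) was 192.7 CPM, with the next at 152.4 and the lowest at 134.1. Ldha in YISO library 20 (BoyJ) was 447.0 CPM, below the other 3 at 547 to 564. Pfkl in OHET library 26 was 51.3 CPM, above the other 3 at 18.3 to 23.0. Aldoa in YCNT library 10, whose labels conflict, was 241.4 CPM, above the other 6 at 122.7 to 155.5.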

How the results depend on the processing

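Over 37 other settings, 3657 of 3670 member values stayed on their side of the threshold, 13 passed it newly and 0 were reversed; 155 values that were not called changed sign. In OCNT minus YCNT the 0 members called became 1 (Ldha) with DESeq2, 3 (Slc2a3, Ldha, Aldoa) with limma-voom, 1 (Aldoa) on the 19 libraries with matching labels, and 0 to 2 with 1 library left out. Ldha passed there without YCNT library 10, YISO library 20, OISO library 19 or OHET libraries 12 or 26 (adjusted p 0.0335 to 0.0431). Aldoa passed without YCNT library 10 (0.0110). Both values were lowest without OCNT library 18, at 0.31 for Ldha and 0.35 for Aldoa. With 1 library left out, the edgeR adjusted p reached 0.446 for Ldha and 0.521 for Aldoa. In OHETX minus OHET the 0 members called became 1 (Vegfa) with DESeq2, and 0 to 1 with 1 library left out. Vegfa passed without OHET library 9, at 1.99 with an adjusted p of 0.0453. The age and joining comparisons gave the same member counts of 0 otherwise. OHETX has no value on the 19 libraries.

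Counts of all genes moved more. OCNT minus YCNT had 339, and 577 with DESeq2, 1154 with limma-voom, 221 on the 19 libraries, 129 by description, 34 without the 3 B6 libraries of OCNT, and 165 to 373 with 1 library left out (165 without OCNT library 30, 217 without 29). OISO minus YISO had 233, and 595, 218, 116, 138, 176 and 108 to 290 (108 without YISO library 33, 116 without 23, and 153 without OISO library 21). OHETX minus OHET had 35, and 476, 0, none on the 19, 0, 0 and 7 to 177 (7 without OHET library 32, 177 without OHETX library 14). OHETX minus OISO had 30, and 409, 14, none on the 19, 0, 17 and 15 to 153 (15 without OISO library 34, 153 without OHETX library 14). Of the 10 genes Vegfa had the fewest counts in any library, 58 in OHET library 12.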
